A study of Mus musculus with 30 samples.

Results

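Imprinted genes were followed at day 22, about weaning, in 3 tissues (liver, kidney and brain) of 10 male mice. The set was a list of 38 mouse genes from 19 imprinted clusters, and 36 of them had a probe set on the array, 95 probe sets in all among 45037. Peg13 and Zrsr1 had none in the platform annotation. Each gene was represented by its strongest probe set, by mean over the 30 arrays. The mice were Avy/a, carrying viable yellow (Avy) at agouti opposite nonagouti (a), and came from a colony kept by sibling mating with forced heterozygosity of Avy, which arose in C3H/HeJ. There were 2 mice, numbered 1 and 2, in each of 5 coat classes, which ran from yellow over slightly mottled, mottled and heavily mottled coats to pseudoagouti. All of them carried Avy, so no mouse without the allele served as a control. The study searched for transcripts that varied between mice more than between tissues, a pattern known from loci such as Avy, whose epigenetic state is set early in development and is shared by tissues.

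An imprinted gene is transcribed mainly from the allele inherited from 1 parent. The choice is kept by DNA methylation that is laid down in the egg or the sperm at an imprinting control region, which often governs several genes and a long noncoding RNA in a cluster. Many imprinted genes act on growth before weaning, and a group of them falls in liver and kidney after birth while it stays on in brain, where imprinted genes are known for roles in neurons, feeding and maternal behaviour. The arrays read total RNA and cannot tell the parental alleles apart.

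The values are the authors' MAS5 signal, a linear intensity. A probe set was tested if its highest tissue mean reached 251.8, the median over probe sets of the highest tissue mean, and 30 of the 36 genes passed. Zim1, Peg10, Asb4, Calcr, Peg12 and Mkrn3 did not. In liver 19 of the 36 genes had a mean at or above 251.8, in kidney 19 and in brain 27, against 34.79%, 37.74% and 40.05% of all probe sets. Log2 differences and folds are on the log2(signal + 16) scale, which understates folds of low signals. Signals of different probe sets were not compared, since their probes differ in efficiency. Probe sets with the suffix _a_at, _s_at or _x_at are here called probe sets of shared sequence. For _a_at, the suffix of the strongest probe sets of H19, Nnat and Rian, the sharing is among transcripts of the same gene. In bulk tissue, fewer cells of a type and less RNA per cell cannot be told apart.

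All 10 liver markers, all 9 measured kidney markers and all 9 measured neuron markers exceeded, in their own tissue, both of the others. The median signal per array ran from 105.2 in liver to 205.4 in brain. A principal component analysis of deviations from tissue means gave a leading axis with 18.17% of the variance, which put all mice numbered 2 on 1 side in each tissue, with 5 of 5 mice numbered 1 on the other side in liver, 4 of 5 in kidney and 3 of 5 in brain. The labels do not say what the number stands for. The labels do not give litters either, so no p-value accounts for relatedness of the mice. The p-values of coat slopes and number differences rest on the spread between these mice. Those of tissue contrasts and the mouse effect rest on the spread left after mouse and tissue are fitted.

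Sequences of the members that carry the main patterns are given first, from RefSeq on GRCm38.p6. RefSeq promoter windows, from 250 bases before to 50 after a start, were found for 32 of the listed genes, 50 windows in all. Their median number of CpG was 14.5, against 7.0 over 32851 promoters. The motif TGCCGC, which is the core of the site bound by ZFP57, the zinc finger protein that keeps methylation at imprinting control regions, was searched on both strands. It was present in 28.0% of the member windows and in 11.6% of all promoters. The motif holds a CpG, and the shares were not matched for the number of CpG. Overlapping windows count separately, such as those of Mest that start at 30737800 and 30737803, both with the motif. A match is a description of letters and says nothing of binding. The windows of 3 brain-high loci are shown. In those of Nap1l5 and Nnat the capitals mark this motif. Peg3 and Usp29 are transcribed away from each other from windows that overlap, chr7:6730370-6730669 for Peg3 on the minus strand and chr7:6730333-6730632 for Usp29 on the plus strand, and the motif was in neither.
Nap1l5, chr6:58907077-58907376, minus strand: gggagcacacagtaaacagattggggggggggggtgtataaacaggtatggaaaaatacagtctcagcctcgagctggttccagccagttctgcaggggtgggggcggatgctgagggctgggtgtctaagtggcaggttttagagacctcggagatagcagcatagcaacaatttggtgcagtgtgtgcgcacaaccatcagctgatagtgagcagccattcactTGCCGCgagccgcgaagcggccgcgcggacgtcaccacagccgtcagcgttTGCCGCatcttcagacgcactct
Nnat, chr2:157559828-157560127, plus strand: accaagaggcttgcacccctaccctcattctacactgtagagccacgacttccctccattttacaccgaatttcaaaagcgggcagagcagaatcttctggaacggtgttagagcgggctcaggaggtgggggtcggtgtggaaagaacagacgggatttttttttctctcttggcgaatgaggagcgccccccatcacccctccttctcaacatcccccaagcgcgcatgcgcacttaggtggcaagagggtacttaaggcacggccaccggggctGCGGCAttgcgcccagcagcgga
Peg3, minus strand: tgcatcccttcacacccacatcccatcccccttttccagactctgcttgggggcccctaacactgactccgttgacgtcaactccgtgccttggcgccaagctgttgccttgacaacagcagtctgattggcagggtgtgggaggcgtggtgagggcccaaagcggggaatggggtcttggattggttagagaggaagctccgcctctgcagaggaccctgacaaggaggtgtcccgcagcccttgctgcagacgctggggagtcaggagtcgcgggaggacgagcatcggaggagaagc

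Noncoding members of the list hold microRNAs, and the array reads the host transcript, not the mature microRNA. The H19 transcript contains the hairpin of miR-675, and its probe set is annotated to H19 and Mir675. Mirg, at chr12:109734981-109749458, holds 10 hairpins and 19 mature microRNAs in the RefSeq table. Those of H19, and the pair from Mirg whose seeds are identical, are shown with bases 2 to 8, the seed, in capitals.
miR-675-5p: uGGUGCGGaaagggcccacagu
miR-675-3p: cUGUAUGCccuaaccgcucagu
miR-453: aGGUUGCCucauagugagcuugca
miR-496a-5p: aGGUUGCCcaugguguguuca
miR-410-3p: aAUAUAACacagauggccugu
The last of these, also from Mirg, has a seed that no other listed microRNA shares. The same holds for every listed microRNA except miR-453 and miR-496a-5p.

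The leading pattern was brain. Of the 30 genes tested, 14 were higher in brain than in both other tissues, against a background of 19.7% of all probe sets tested, at limma's adjusted p under 0.05 and a log2 difference of at least 1. They were Igf2, Peg3, Usp29, Meg3, Rian, Mirg, Nnat, Zdbf2, Snrpn, Ndn, Nap1l5, Rasgrf1, Inpp5f and Impact. Kidney was higher than both others for 2 genes, Cdkn1c and Phlda2, against 7.69%, and liver for 1, the probe set annotated to H19, against 7.64%. Igf2, Usp29, Rian, Nnat, Zdbf2 and Nap1l5 reached the test level in brain only, Cdkn1c and Phlda2 in kidney only, and H19 in liver only. These genes passed the filter through the tissue in which they were called high. Probe sets of the background passed the same filter. By pairs of tissues, 16 genes were lower in liver than in brain, against a background of 30.3%, and 3 were higher, against 20.5%. In kidney 15 were lower than in brain, against 22.0%, and 5 were higher, against 20.8%. Between liver and kidney, 6 were lower in liver, against 18.6%, and 3 were higher, against 9.87%. The median log2 difference of the 30 genes was -1.08 for liver minus brain and -0.93 for kidney minus brain, against -0.15 and 0.03 over all probe sets tested. Of 48 called tissue differences, 39 had a value under every alternative tried, and 37 of these stayed called. The other 9, among them those of H19, Nnat and Phlda2, had no value under 1 alternative that dropped the probe set, and 8 of them were called under the rest. None changed sign.

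**Figure D1:**
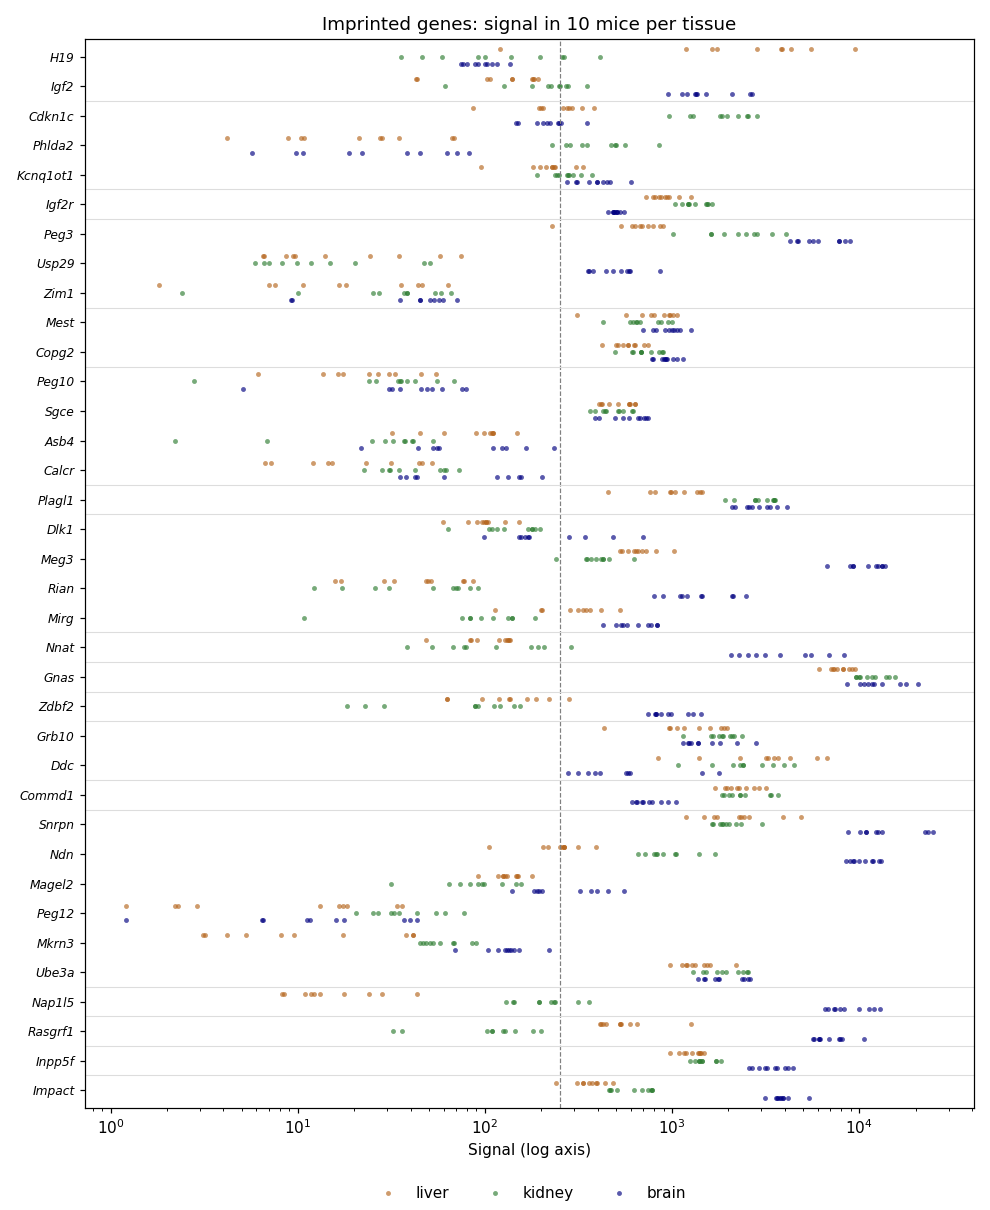
Signal of each of the 36 genes on the array (log axis) in the 10 mice of each tissue, 1 point per mouse, with clusters separated by grey lines and the test level of 251.8 dashed. The 10 brain points of Nap1l5, Ndn and Meg3 lie far to the right of their liver and kidney points, Cdkn1c and Phlda2 are highest in kidney, and H19 is highest in liver apart from 1 mouse.

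Nap1l5, a single-exon gene for a nucleosome assembly protein family member, is known to lie in an intron of Herc3, at chr6:58905233-58907126. Its brain signal ran from 6540.5 to 12963.0 with a median of 8087.6. In kidney it ran from 128.8 to 360.9, median 209.9, and in liver from 8.20 to 43.30, median 12.70. No tissue overlapped another. The difference of liver from brain was -8.09 ± 0.18 (SE), 271.9-fold, the largest among the members, and that of kidney from brain was -5.31 ± 0.18, 39.59-fold. The adjusted p by limma was 9.51e-23 and 6.50e-19, and all 10 mice agreed in direction. At such low liver signals the difference depends on the offset, and that of liver from brain was -9.06 with an offset of 1 and -6.77 with 64.

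Rasgrf1, a guanine nucleotide exchange factor of neurons, had a brain signal of 5673.4 to 10630.1, median 6533.9. In liver it ran from 413.8 to 1260.3, median 524.8, and in kidney from 32.30 to 198.9, median 116.8. Kidney was 57.99-fold below brain (log2 -5.86 ± 0.19, limma adjusted p 2.11e-19), and liver was above kidney in 10 of 10 mice by 2.22 ± 0.19. The liver level was that of this probe set only. A second probe set had means of 8.85 in liver and 5.68 in kidney against 4418.6 in brain, and with probe sets of shared sequence left out the liver and kidney difference was 0.18 and not called, while those from brain were -7.47 in liver and -7.65 in kidney.

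Nnat, which encodes the membrane proteolipid neuronatin of developing brain, had 2059.5 to 8322.2 in brain, median 3441.7. Liver was 48.50 to 136.7, median 123.1, and kidney 38.20 to 288.0, median 97.10. Liver and kidney overlapped in full, and both lay below every brain sample. Brain was 31.65-fold above liver (log2 difference of liver from brain -4.98 ± 0.27) and 30.47-fold above kidney.

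In the Snrpn to Ube3a region of chromosome 7, the counterpart of the human Prader-Willi and Angelman region, the paternally expressed Snrpn and Ndn were brain-high. Ndn, for the MAGE family protein necdin of postmitotic neurons, had 8545.3 to 13124.8 in brain, 656.5 to 1696.8 in kidney and 105.5 to 394.1 in liver, with medians of 10372.0, 859.8 and 260.6. The 3 tissues did not overlap. The steps were -5.35 ± 0.14 for liver minus brain, -3.45 ± 0.14 for kidney minus brain and -1.90 ± 0.14 for liver minus kidney, all called by limma, with adjusted p of 1.64e-21, 1.91e-17 and 8.23e-12. Snrpn, for a protein of the splicing ribonucleoprotein, ran from 8718.5 to 24813.9 in brain, from 1188.4 to 4879.7 in liver and from 1633.5 to 3026.6 in kidney. It was 6.19-fold lower in liver and 6.93-fold lower in kidney, and those 2 tissues overlapped. These folds are those of the strongest Snrpn probe set, with a liver mean of 2446.1. Another tested probe set had means of 542.1, 630.4 and 13094.5 in liver, kidney and brain, and a further one 25.85, 26.61 and 402.6. Magel2, another MAGE family gene known from the hypothalamus, was low at this array's level. Its median was 261.5 in brain, 129.0 in liver and 94.00 in kidney, and only kidney minus brain was called (-1.45 ± 0.24), since liver minus brain was -0.97 ± 0.24 and missed the minimum difference. Brain was 1.95-fold above liver, in 10 of 10 mice, and the difference was called with an offset of 1 (-1.04) and without any 1 of the mice numbered 2 (-1.01 to -1.07). Ube3a, the ubiquitin ligase expressed from the maternal allele in neurons, was called in no contrast. Its medians were 1301.7 in liver, 1885.8 in kidney and 1772.8 in brain. Its probe sets disagreed: 1 had means of 661.2, 475.1 and 343.9 in liver, kidney and brain, and another 131.0, 143.1 and 740.0. Mkrn3 and Peg12 stayed below the test level in every tissue, Mkrn3 with means of 17.09, 61.20 and 133.7 in liver, kidney and brain.

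In the Dlk1 to Meg3 cluster of chromosome 12 the maternally expressed noncoding RNAs were brain-high. Meg3 ran from 6740.8 to 13719.7 in brain, median 11660.4, from 526.9 to 1020.4 in liver and from 240.4 to 626.3 in kidney. It was 15.73-fold lower in liver and 26.26-fold lower in kidney than in brain (log2 -3.98 ± 0.15 and -4.72 ± 0.15), and all 11 of its probe sets on the array were highest in brain. These folds are those of the strongest probe set, of shared sequence. With such probe sets left out the differences were -7.10 and -7.98, and the 10 other probe sets had liver means of at most 225.8, below the test level. Rian, which hosts many small nucleolar RNAs, had 800.0 to 2492.2 in brain against at most 86.50 in liver and 91.40 in kidney. Its folds were 23.30 and 22.43 (log2 -4.54 and -4.49), and with probe sets of shared sequence left out the differences were -3.51 and -3.76. Mirg, the microRNA host at the far end, had the order of Meg3 (brain, liver, kidney) but a smaller step from liver to brain. Its median was 615.2 in brain, 325.8 in liver and 102.8 in kidney, and liver exceeded kidney in 10 of 10 mice by 1.48 ± 0.19 (limma adjusted p 1.64e-07). The step from liver to brain was -1.08 ± 0.19 and fell below the minimum difference with an offset of 64 (-0.96), with quantile normalization over all arrays (-0.75) and without yellow 2 (-0.97). A second Mirg probe set had means of 90.27 in liver, 28.96 in kidney and 723.5 in brain. Dlk1, the paternally expressed gene for a Notch-like protein of precursor cells, was near the test level. Its brain median was 170.2 with a highest value of 698.0, and its liver median was 100.2. Liver minus brain was -1.09 ± 0.24 and was lost with an offset of 64 (-0.87), with quantile normalization (-0.83) and without slightly mottled 1 (-0.96) or heavily mottled 1 (-0.98). Kidney minus brain, not called here, was -2.73 and called with the other tested Dlk1 probe set, which had means of 304.5 in brain, 19.66 in liver and 14.66 in kidney.

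Peg3 and Usp29, the divergent pair of chromosome 7 whose promoter windows overlap, were both brain-high but differed in the other tissues. Peg3, for a zinc finger protein linked to growth and maternal care, ran from 4239.7 to 8953.5 in brain, from 1009.7 to 4049.1 in kidney and from 227.3 to 893.6 in liver. Brain was 9.54-fold above liver and 2.75-fold above kidney, and kidney was above liver in 10 of 10 mice (log2 1.79, 3.47-fold). Usp29, for a ubiquitin protease of the same domain, had 355.8 to 857.8 in brain and at most 74.00 in liver and 51.00 in kidney. Its folds were 14.45 and 16.41, and liver and kidney overlapped. Zim1, in the same domain, was at most 70.90 in any sample.

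Of the other paternally expressed singletons, Zdbf2 had medians of 909.6 in brain, 135.4 in liver and 90.35 in kidney. Brain was 6.59-fold and 11.04-fold higher. Impact, which inhibits the translational kinase GCN2 in neurons, had medians of 3806.9, 364.6 and 657.0 in brain, liver and kidney, with folds of 10.31 and 6.14. Inpp5f, for a phosphoinositide phosphatase, was brain-high by a smaller factor, 2.65-fold over liver and 2.28-fold over kidney. All brain values of these 3 genes lay above all values of the other tissues.

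The H19 to Igf2 pair of chromosome 7 was opposed by tissue. H19, a maternally expressed noncoding RNA that is abundant before birth, had a liver median of 3341.8, a kidney median of 118.8 and a brain median of 95.40. The liver values in the 10 mice ran from 120.2 to 9483.4. Liver was above kidney by 4.04 ± 0.46 and above brain by 4.37 ± 0.46 (limma adjusted p 1.96e-08 and 2.21e-09), in 10 and in 9 of 10 mice. Igf2, the paternally expressed growth factor of the fetus, had its highest signal in brain, 944.6 to 2678.5. In liver it ran from 43.00 to 192.2 and in kidney from 61.30 to 350.7, below every brain value. Its brain values were 2086.7, 2616.5 and 2678.5 in yellow 1, yellow 2 and slightly mottled 1, and at most 1525.4 elsewhere. Summed markers of meninges and fibroblasts in brain were 7080.0, 9375.3 and 8473.6 in these mice, and at most 6771.3 elsewhere. Choroid plexus sums overlapped, 2261.9 to 3987.6 against 939.9 to 2601.9. The part of these cells in Igf2 was not tested. Brain Igf2 was 11.46-fold above liver and 7.03-fold above kidney. Igf2r, the receptor that clears IGF2 and is maternally expressed, ran the other way, with medians of 899.0 in liver, 1276.1 in kidney and 496.5 in brain. Kidney exceeded brain by 1.38 ± 0.09 in 10 of 10 mice, and liver exceeded brain by 0.85 ± 0.09, below the minimum difference, but by 1.12 and called after quantile normalization over all arrays.

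Kidney led for the maternally expressed growth inhibitors of the Kcnq1ot1 cluster. Cdkn1c, the cyclin-dependent kinase inhibitor p57, had 957.0 to 2835.8 in kidney, where podocytes express it. Liver was 86.10 to 383.3 and brain 146.0 to 352.6. Kidney was 7.31-fold above liver, and the log2 difference of kidney from brain was 2.98 ± 0.16. Phlda2, known as a brake on placental growth, had 229.4 to 854.8 in kidney and at most 68.00 in liver and 81.80 in brain. Kidney was 10.69-fold above liver and 3.19 ± 0.24 on the log2 scale above brain. No kidney value of either gene overlapped the other tissues. Kcnq1ot1, the paternally expressed noncoding RNA of the cluster, was called in no contrast, with medians of 228.8, 276.2 and 396.0 in liver, kidney and brain. The signal of Plagl1, a zinc finger regulator of other imprinted genes, was shared by kidney (median 3046.9) and brain (median 2802.3), and liver (median 1010.9) was below both, by 1.54 and 1.52 on the log2 scale.

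The Grb10 to Ddc pair of chromosome 11 was not brain-high. Grb10, an adaptor that dampens insulin and IGF signalling, was called in no contrast, with medians of 1271.3, 1862.0 and 1375.2 in liver, kidney and brain. Ddc, the decarboxylase that makes dopamine and serotonin, had liver values of 839.2 to 6693.1, kidney values of 1080.8 to 4496.7 and brain values of 276.9 to 1775.9. It was above brain by 2.42 ± 0.24 in liver and 2.15 ± 0.24 in kidney, in all 10 mice, although the ranges overlapped between mice. Commd1, a copper and NF-kappaB regulator, also was lower in brain, by 1.58 ± 0.13 against liver and 1.67 ± 0.13 against kidney. Its other probe set was highest in liver (1962.7) rather than kidney (1792.2). Mest, Copg2, Sgce and Gnas were called in no contrast. Their medians in liver, kidney and brain were 855.2, 662.6 and 982.6 for Mest, 579.0, 682.2 and 922.6 for Copg2, 552.9, 479.4 and 620.1 for Sgce, and 7874.1, 11345.0 and 11861.5 for Gnas, the stimulatory G protein. Gnas would be called for liver minus brain after quantile normalization over all arrays (-1.34 against -0.70). Among the probe sets of the members beyond the strongest, 33 were tested, and 31 of them were highest in the same tissue as the strongest.

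Lists of related genes were set beside the members. Of 25 other imprinted genes tested, 3 were higher in liver than in both other tissues, 6 in kidney and 3 in brain. The shares of all probe sets tested were 7.64% for liver, 7.69% for kidney and 19.7% for brain, here and for the lists below. The brain lead of the members was thus not shared by this list. Slc38a4, a paternally expressed amino acid transporter, had a liver mean of 14023.1 ± 3089.3 (SD, n = 10) against 43.12 in kidney and 57.33 in brain. Slc22a2, an organic cation transporter, had 3419.9 ± 982.8 in kidney and at most 94.74 as a mean elsewhere. Ipw and Ppp1r9a led in brain, with means of 276.7 ± 158.7 and 5575.9 ± 545.4. Of the IGF axis, 14 genes were tested, with 5 higher in liver, 4 in kidney and 2 in brain. Igfbp1, Igfals, Igfbp2 and Igf1 led in liver, Igf1 with a mean of 17463.9 ± 2210.6 there and 404.9 in brain. Igf1, the growth factor of the weaned animal, was thus liver-high where Igf2 was brain-high. Of the 11 tested genes that maintain imprints, such as Trim28, Dnmt1, Uhrf1 and Ctcf, none was higher in 1 tissue than in both others. The list of fetal genes silenced in liver after birth also holds Zhx2, known as a regulator of such genes. Of this list 5 were tested, and Afp and Igf2bp3 were higher in liver and Gpc3 in kidney.

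Spread between mice was the question of the study. The SD across the 10 mice, averaged over tissues, had a median of 0.46 (log2) over the 30 genes, against 0.33 over all probe sets tested. The SD across tissues had a median of 1.47, against 0.75. The variation ratio R, the first of these SDs divided by the second for each gene, had a median of 0.32, against 0.42. R exceeded 1 in 2 of 30 genes, Mest at 1.25 and Grb10 at 1.10, against 9.29% of all probe sets tested, and it exceeded 1.5, the value named in the series description, in 0, against 0.662%. Zim1 and Peg10 also exceeded 1, at 1.23 and 1.32, with signals below the test level. The series description gives no formula for R. The SD within a tissue was largest in liver, where the median of the members at the level was 0.46 against 0.28 of all probe sets at the level, while kidney and brain had 0.33 against 0.28.

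A shared difference between mice, tested by limma's F-test with tissue as a covariate, was called for 2 of the 30 genes, against a background of 6.76%. Ddc (adjusted p 0.0367) had mouse means over a 4.71-fold range, from pseudoagouti 2 to heavily mottled 1. Its liver values were 839.2 in pseudoagouti 2 and 1386.4 in yellow 2, and 5936.0 and 6693.1 in heavily mottled 1 and mottled 1. Its kidney values in the same mice were 1080.8, 1634.7, 4496.7 and 3964.3, in the same low and high places, but its brain value in mottled 1 was 276.9, the lowest. Mirg (adjusted p 0.0490) had a 2.72-fold range, from pseudoagouti 1 to pseudoagouti 2, with kidney values of 10.80 and 133.1. With the number of the mouse removed within each tissue, 0 were called, against 0.413%. Under this fit 8 of 30 genes had an unadjusted p under 0.05, against 15.7%, and without the removal 7 had, against 25.3%. Ddc was lost without any 1 of yellow 1, yellow 2, heavily mottled 1, pseudoagouti 1 and pseudoagouti 2 (adjusted p 0.0515, 0.0702, 0.105, 0.0553 and 0.135). Mirg was lost without any 1 mouse other than heavily mottled 2 (0.0509 to 0.0952), and its other probe set gave 0.912.

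Single mice stood out for several members at once. In brain, yellow 2 was lowest for 8 of the 27 members at the level, against 8.35% of all probe sets. Slightly mottled 1 was highest there for 10, against 16.1%. The members' median deviations from the median over mice were -0.20 and 0.54 (log2) in these brains, each against 0.01 over all probe sets. Yellow 2 was not alone among the mice numbered 2. Heavily mottled 2 and pseudoagouti 2 were each lowest in brain for 5 members, with median deviations of -0.18 and -0.16. Slightly mottled 2 and mottled 2 had -0.01 and -0.04. Of the mice numbered 1, yellow 1, heavily mottled 1 and pseudoagouti 1 also lay high, at 0.30, 0.26 and 0.24, and mottled 1 was at -0.01. Whether yellow 2 or slightly mottled 1 differed beyond their number was not tested. In liver 1 mouse stood low. Heavily mottled 1 had the lowest liver value for 6 of the 19 members at the level, against 13.9% of all probe sets. H19 was 120.2 in this mouse and 1187.0 to 9483.4 in the other mice. Peg3 was 227.3 against 530.6 to 893.6, Ndn was 105.5 against 203.5 to 394.1, and Grb10 was 435.0 against 958.0 to 1967.1. Mest was 310.2 against 568.1 to 1059.6, and Plagl1 was 452.5 against 760.4 to 1436.4. All these values lay below those of the 9 other livers, while the median deviation of the 19 members from the median over mice was -0.04 (log2), against -0.01 over all probe sets. The mouse was also lowest in kidney for 6 of 19 members, against 18.7%, namely Peg3 (1009.7), Mest (428.3), Grb10 (1144.9), Plagl1 (1906.0), Ndn (656.5) and Kcnq1ot1 (189.2). The median deviation of the 19 members was 0.01 in that kidney, against -0.03 over all probe sets. Of 11 imprint maintenance factors at the level, 6 were lowest in the same kidney (median deviation -0.22), among them Dnmt1 at 405.1 (median 745.4) and Uhrf1 at 82.20 (371.0). In the liver of this mouse 2 of 10 such factors were lowest, against 13.9%, and in its brain 2 of 10, against 16.1%. The part of these factors in the member values was not tested. For the members in brain, heavily mottled 1 was lowest for 0 of 27 and highest for 6, against 15.2%. The list of fetal genes silenced in liver after birth had 5 genes at the level, Zhx2 included. Of these, 3 were also lowest in the liver of heavily mottled 1. They were Afp at 341.4 (median 1357.2), Gpc3 at 83.20 (279.7) and Igf2bp3 at 796.6 (1367.8). Zhx2, the regulator in the list, was highest there, at 786.0 (599.8). The liver marker sum of this mouse was 322512.5, within the range of 238180.6 to 348061.3. The part of the fetal list in the member values was not tested. Without this mouse, liver minus kidney of H19 was 4.46 in place of 4.04.

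**Figure D2:**
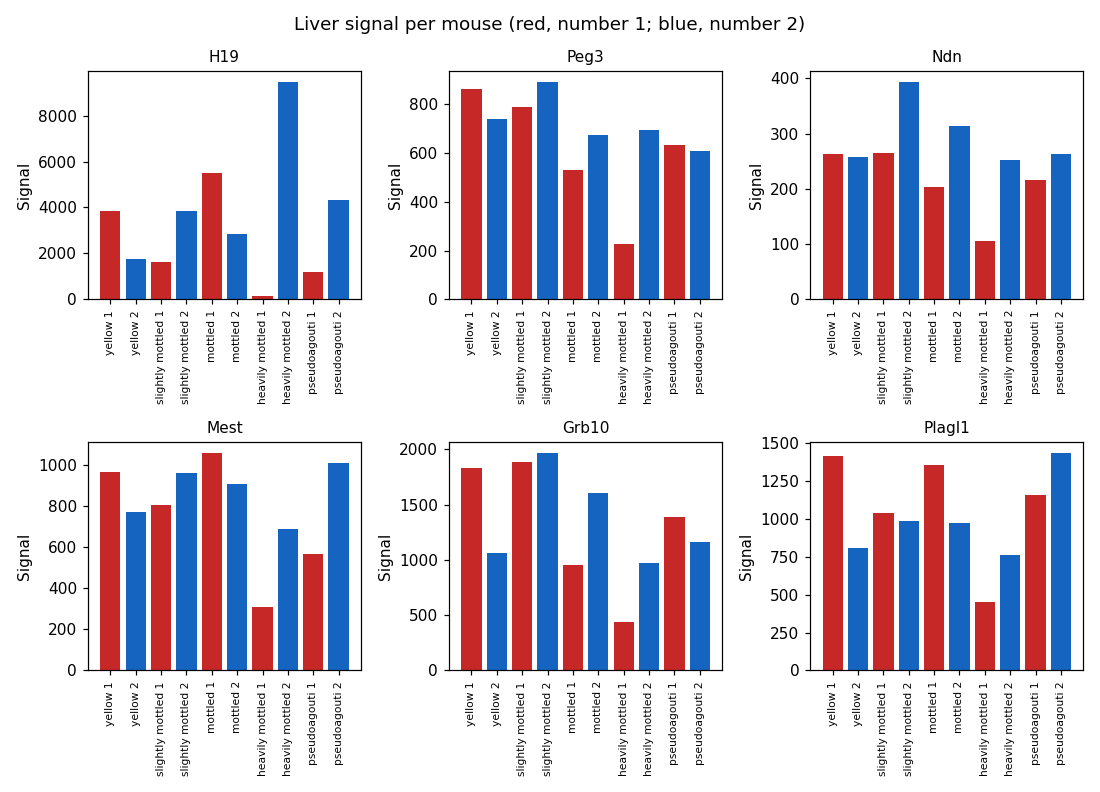
Liver signal of H19, Peg3, Ndn, Mest, Grb10 and Plagl1 in each of the 10 mice, with mice numbered 1 in red and mice numbered 2 in blue. The bar of heavily mottled 1 is the lowest in every panel, with H19 at 120.2 against a median of 3341.8.

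Snrpn, at its strongest probe set, did not follow. The same liver held its highest value, 4879.7, against 1188.4 to 3900.2 elsewhere. Heavily mottled 2 held the highest liver values of H19 (9483.4) and of Rasgrf1, at 1260.3 against 413.8 to 651.0.

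In brain most members had lower values in the mice numbered 2, and 1 was called. The difference was below 0 for 26 of the 30 genes (86.7%), against 52.6% of all probe sets tested, and above 0 for Commd1 (0.28), Mest (0.19), Mirg (0.07) and Igf2r (0.04). The median difference of mice numbered 2 from mice numbered 1 was -0.37 (log2) over the 30 genes, against -0.02 over all probe sets tested, while it was 0.13 in liver and 0.22 in kidney, against 0.04 and 0.05. With all mice, 1 member was called lower in brain, Magel2 (-1.13 ± 0.17, limma adjusted p 0.0464), against a background of 0.191%. Its values were 322.0 to 553.5 in the 5 mice numbered 1 and 139.6 to 201.0 in the 5 numbered 2, without overlap. For Dlk1 and Peg3 mottled 1 stood with the mice numbered 2. Dlk1 was 280.1 to 698.0 in 4 mice numbered 1 and 169.0 in mottled 1, against 98.90 to 171.5 in those numbered 2. Peg3 was 7823.0 to 8953.5 in those 4 mice and 4703.6 in mottled 1, against 4239.7 to 6002.0. Nnat was 2272.9 in mottled 1, but heavily mottled 1 (3754.4) and pseudoagouti 1 (5143.2) also lay within the range of the mice numbered 2, 2059.5 to 5524.0. Leaving out each mouse in turn gave 0 members called lower for 8 of the 10 mice, 1 without heavily mottled 1 and 12 without mottled 1, where the background was 3.51%. Mottled 1 was singled out after its values were seen, so the 12 are given as a description. They were Dlk1 (-1.44 ± 0.27), Ddc (-1.26 ± 0.33), Magel2 (-1.21 ± 0.17), Snrpn (-0.95 ± 0.18), Nnat, Rian, Grb10, Gnas, Peg3, Nap1l5, Zdbf2 and Sgce (-0.55 ± 0.15). None was called higher, against 4.82%.

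Markers of the hypothalamus, and in part those of glia and neurons, moved with these values. The summed signal of 11 hypothalamus markers in brain was 13325.3, 13897.4, 10766.2 and 13059.5 in yellow 1, slightly mottled 1, heavily mottled 1 and pseudoagouti 1, and 6750.8 in mottled 1. In the mice numbered 2 it ran from 6799.5 to 8445.5. Of the 11 markers, 7 reached the test level in brain. Pmch, a peptide of the lateral hypothalamus, had a brain mean of 1782.4 ± 2113.1 (SD, n = 10), and Nkx2-1 and Trh stayed below the test level, at 57.92 and 72.24. Signals of 9 neuron markers summed to 98834.7, 91278.1, 65553.2 and 100748.4 in yellow 1, slightly mottled 1, heavily mottled 1 and pseudoagouti 1. The neuron sum in mottled 1 was 74661.1. In the mice numbered 2 it ran from 64995.4 to 80758.1, a range that holds heavily mottled 1 and mottled 1. The summed signal of 9 glia markers was 68755.1, 80438.5, 48118.1 and 63639.2 in yellow 1, slightly mottled 1, heavily mottled 1 and pseudoagouti 1, and 38166.0 in mottled 1. In the mice numbered 2 it ran from 38861.8 to 50221.6, a range that holds heavily mottled 1. The part of the hypothalamus, glia and neuron markers in the member values was not tested. Magel2 was called with all mice and without mottled 1 or heavily mottled 1, and was lost without any other mouse (-1.03 to -1.18, adjusted p 0.0619 to 0.140).

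**Figure D3:**
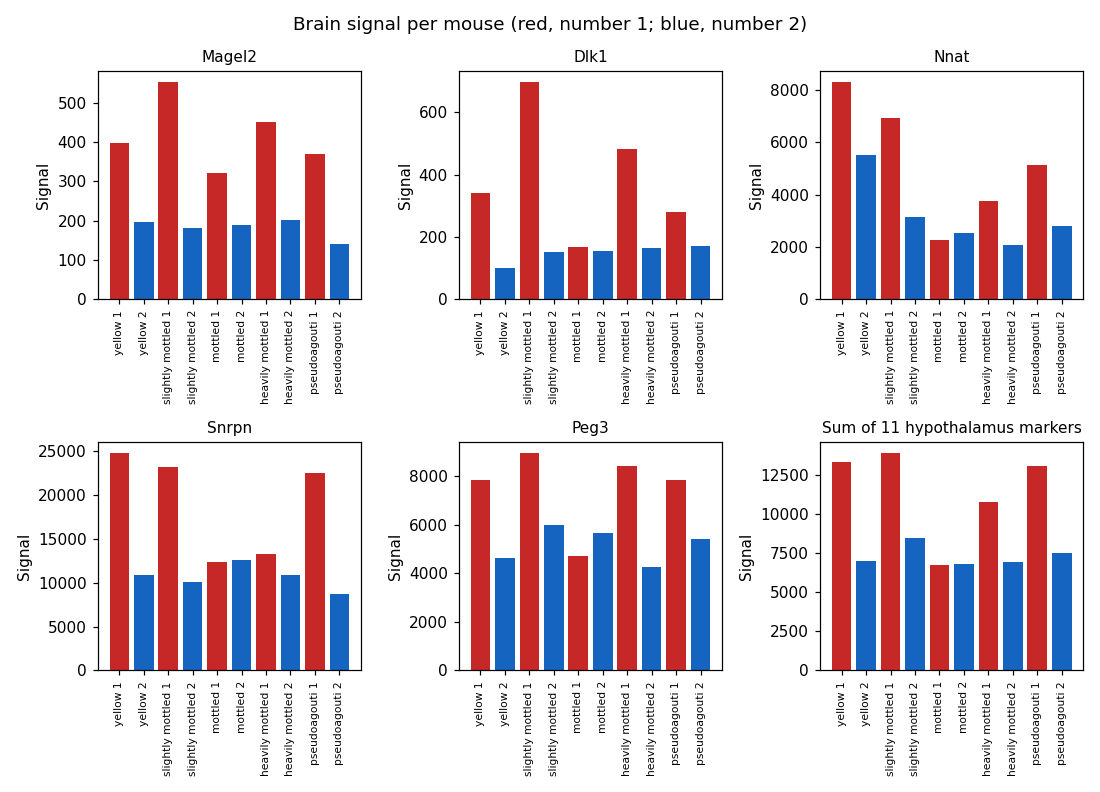
Brain signal of Magel2, Dlk1, Nnat, Snrpn and Peg3, and the sum of 11 hypothalamus markers, in each of the 10 mice, with mice numbered 1 in red and mice numbered 2 in blue. For Magel2 every red bar exceeds every blue bar, and in the marker sum mottled 1 (6750.8) is at the height of the mice numbered 2.

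Calls for the number in the other tissues were few. In kidney Peg3 was higher in mice numbered 2 by 0.91 ± 0.20 (5 of 5 coat classes), against a background of 1.07%, and Phlda2 was lower by -0.92 ± 0.19, against 0.866%, each with a limma adjusted p of 0.0481. Peg3 in kidney was 1009.7 to 2238.0 in mice numbered 1 and 2491.4 to 4049.1 in those numbered 2. Phlda2 was 470.2 to 854.8 and 229.4 to 351.1. Neither overlapped. The summed signal of 9 kidney markers was 158802.7 to 179382.5 in 4 of the mice numbered 1 and 109432.8 in mottled 1, against 91169.9 to 114874.6 in the mice numbered 2, and its part in these differences was not tested. Usp29 in liver was called higher (1.13 ± 0.30, limma adjusted p 0.0398, background 4.16%) at signals of 6.50 to 74.00, far below the test level in that tissue. No member was lower in liver (background 4.76%) or higher in brain (0.528%). Usp29 was 6.50 to 9.70 in mice numbered 1 and 13.90 to 74.00 in those numbered 2. The calls of Peg3 and Phlda2 held without mottled 1 or mottled 2 and were lost without any other mouse (adjusted p 0.0621 to 0.147), and that of Usp29 held without mottled 2 or heavily mottled 2 only (0.0617 to 0.0870 otherwise).

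Pairs of members were compared across the 10 mice of a tissue, 25 relations in all, 21 within a cluster and 4 between clusters, by permutation of mice and with Benjamini-Hochberg adjustment. Calls and printed p-values are those of Pearson's r unless rho is named. The pairs called in brain were Meg3 and Rian (r = 0.904, rho = 0.976, permutation p 1.50e-04, adjusted 0.00375), Grb10 and Ddc (r = 0.904, rho = 0.782, permutation p 0.00119, adjusted 0.00812), Snrpn and Ube3a (0.865, 0.855, 0.0013, 0.00812), and Peg3 and Ndn (0.930, 0.879, 4.60e-04, 0.00575). Without the 2 mice farthest from the median, r was 0.863 for Meg3 and Rian. Within the mice numbered 1 it was 0.881, and within those numbered 2 it was 0.938, over 5 mice each. For Meg3 and Mirg, of the same cluster, r was -0.081 in brain with a permutation p of 0.825. Peg3 and Ndn lie in different clusters, and r in brain was 0.946 without slightly mottled 1 and heavily mottled 1, and 0.898 and 0.798 within the numbers. In liver the same pair had r of 0.920 (rho = 0.736, permutation p 0.00165, adjusted 0.00825), which fell to 0.533 without slightly mottled 2 and heavily mottled 1, so it rested on those mice. Grb10 and Ddc had r of 0.694 in brain without slightly mottled 1 and heavily mottled 1, and 0.912 and 0.836 within the numbers, against -0.135 in liver and -0.225 in kidney. Snrpn and Ube3a had r of 0.752 without yellow 1 and slightly mottled 1, and 0.991 and 0.633 within the numbers. For rho, the adjusted permutation p was 0.0528 for Grb10 and Ddc in brain and 0.0792 for Peg3 and Ndn in liver. It was under 0.05 for the other called pairs.

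No coat slope was called. The slope per step from yellow (0) to pseudoagouti (4), on the mean of the tissues, was called for 0 of 30 members, against 0.00444% of all probe sets, and it was 0 in liver, kidney and brain, against 0, 0.00444 and 0%. The F-test of a difference in slope between tissues called 0 members, against 0%, and 0 members had an unadjusted p under 0.05, against 2.41%. The members' median slope was -0.01 in the mean of tissues. By unadjusted p under 0.05 in the mean of tissues, 1 slope was above 0, against 0.644%, and 2 were below 0, against 1.26%. They were Zdbf2 (-0.17 ± 0.05, limma unadjusted p 0.00615), Nnat (-0.17 ± 0.06, 0.0112) and Nap1l5 (0.09 ± 0.04, 0.0477), each with an adjusted p of 1. In brain, the only tissue where these 3 genes were at the level, the slopes were -0.05 for Zdbf2, -0.24 for Nnat and -0.02 for Nap1l5. The mean for Zdbf2 rested on kidney (-0.35) and liver (-0.10), and that for Nap1l5 on liver (0.17, at signals of 8.20 to 43.30) and kidney (0.11). Nnat in brain was 8322.2 and 5524.0 in the yellow mice and 5143.2 and 2803.0 in the pseudoagouti mice, with heavily mottled 2 lowest at 2059.5. In single tissues the unadjusted p was under 0.05 above 0 for 1 member in liver (background 0.933%), 1 in kidney (0.648%) and 0 in brain (0.777%), and below 0 for 0 in liver (1.44%), 3 in kidney (1.41%) and 1 in brain (0.666%). They were Igf2r (0.13 ± 0.04), Mest (-0.14 ± 0.07), Sgce (-0.12 ± 0.05) and Zdbf2 (-0.35 ± 0.14) in kidney, Igf2 (-0.20 ± 0.08) in brain and Mirg (0.23 ± 0.10) in liver. These 8 genes came from 8 clusters, 1 gene in each, and the Kcnq1ot1, Peg3, Grb10 to Ddc and Snrpn to Ube3a clusters had none.

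**Figure D4:**
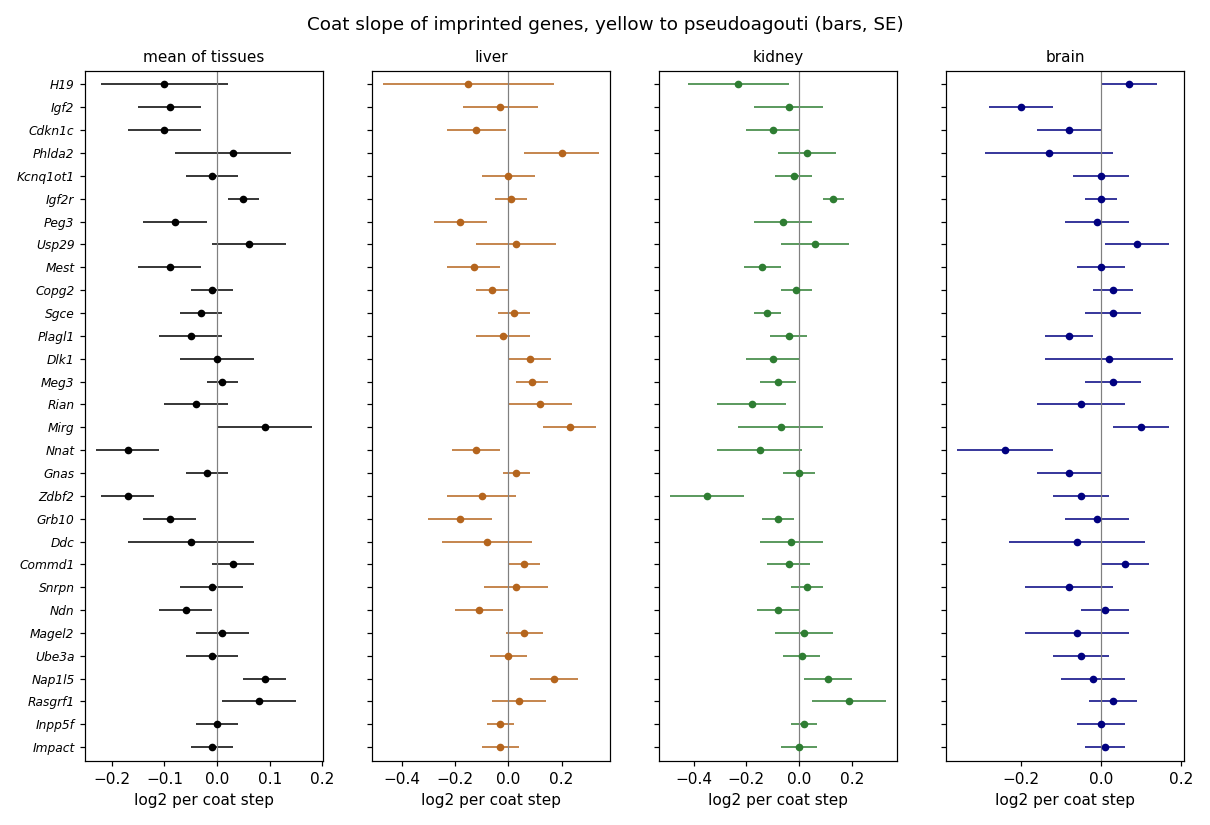
Coat slope (log2 per step, yellow to pseudoagouti) of the 30 tested genes on the mean of tissues and in each tissue, with bars of 1 SE. Zdbf2 and Nnat at -0.17 lie farthest below 0 in the mean of tissues, and no slope passed the adjusted test.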

How the data were processed

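RNA of 3 tissues from 10 mice was measured on Affymetrix Mouse Genome 430 2.0 arrays, 30 in all. The values the authors deposited are intensity on a linear scale, made with MAS5, per the submitters' processing notes (version not given in the sources used here). The mean after trimming 2% at each end was 500.0 on every array. No detection calls were used, and the number of arrays limits the precision.

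Of 45101 probe sets 64 controls were left out. Platform annotation gave 34945 of the rest 1 symbol, 932 several, of which 205 were named by accession, and 9160 none. After log2(signal + 16), probe sets whose highest tissue mean was at or above 251.8 were tested, 22519 probe sets of 12249 genes. Models were fitted over all of these with limma 3.58.1 in R 4.3.3 (eBayes with trend, Benjamini-Hochberg adjusted p under 0.05) and tested on simulated data. Arrays that share class and number were treated as 1 mouse, which is where the pairing of tissues comes from, and tissue contrasts had mouse as a block and a minimum log2 difference of 1. The mouse effect was an F-test with tissue as a covariate. For R, the SD between mice was averaged over tissues and divided by the SD between tissues averaged over mice, a formula chosen here. Number differences had coat step as a covariate. Correlations used two-sided permutation tests.

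All members were named, with up to 4 called genes of each related list by the gap between the highest and the second tissue, and marker lists as sums. Members and lists were chosen with earlier results of these data known. Alternatives changed the offset, filter, scaling, probe set, blocks and mice left out. Single values were followed through the alternatives only where they are printed as differences, slopes or mouse effects. That restriction was made after a first run, in which signs of some uncalled values near 0 turned. Sequences and positions are from RefSeq, GRCm38.p6.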

Additional observations from a re-analysis of the deposited data

Results flagged for a closer look

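Of 65 groups of 10 mice screened, 1 for each gene and tissue where the mean reached the test level, 8 held a value apart from the rest by Dixon's test. Chance gives about 1 in 20 for independent groups, but these groups share the same 10 mice. The share over all probe sets was not computed, so the 8 are given as a description. Heavily mottled 1 was the lowest in 6 of these 8. In liver its H19 was 120.2 (next 1187.0), its Peg3 227.3 (next 530.6), its Mest 310.2 (next 568.1), its Grb10 435.0 (next 958.0) and its Ndn 105.5 (next 203.5). In kidney its Grb10 was 1144.9 (next 1616.2). In brain the same mouse held the highest Impact, 5372.8 (next 4140.1). Heavily mottled 2 held the highest liver Rasgrf1, 1260.3 (next 651.0), at a probe set of shared sequence.

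Meg3 differed between mice numbered 2 and 1 in opposite directions by tissue, by 0.39 ± 0.17 in kidney (higher in 5 of 5 coat classes) and by -0.48 ± 0.15 in brain (higher in 0 of 5). Neither passed limma's test (adjusted p 0.164 and 0.113), and the difference between the tissues was not tested. With probe sets of shared sequence left out, the values were 0.19 in kidney (adjusted p 0.611) and -1.11 in brain, which was called (adjusted p 0.0495).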

How the results depend on the processing

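Of 48 called tissue differences, 37 of the 39 with a value under every alternative stayed called, and none of the 48 changed sign. Rasgrf1 for liver against kidney and Mirg for liver against brain were lost. Of the 9 without a value under 1 alternative, Dlk1 for liver against brain was lost under others. The 8 that were called elsewhere were those of H19, Nnat and Plagl1, not tested without shared-sequence probe sets, and of Phlda2, not tested with the filter on the overall mean. An offset of 1 or 64 moved some differences of Phlda2, Nap1l5, Usp29, Rian and Zdbf2 by over 1.5 times, with all of them still called. Members higher in liver than in kidney went from 3 to 1 without probe sets of shared sequence and to 5 with no minimum difference, and those higher in kidney from 6 to 14 with no minimum difference. Higher in liver than in both others went from 1 to 0 without shared-sequence probe sets, since these include the H19 probe set by its suffix _a_at. Higher in kidney went from 2 to 1 when filtering by overall mean. The mouse effect went from 2 members to 1 with an offset of 1, either quantile normalization, the probe set with the highest tissue mean, or kidney and brain alone, and to 0 with no filter, with liver and brain alone, and with the number as a replicate block within or over tissues. Leaving out 1 mouse gave 0 to 3. Coat slopes called 0 members under every alternative, the replicate block included. For mice numbered 2 against 1, the member higher in liver became 0 with an offset of 64, no filter or either quantile normalization, and 2 without shared-sequence probe sets (0 to 1 leaving out 1 mouse). The member higher in kidney became 0 with no filter or quantile normalization over all arrays (0 to 2), and the member lower in kidney 0 with these or with the filter on the overall mean (0 to 5, the 5 without mottled 1). The member lower in brain became 0 with no filter and 2 without shared-sequence probe sets (0 to 12, the 12 without mottled 1). The cause of these moves was not tested. With no detection calls, signals below the test level cannot be told from background.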
